A study of Mus musculus with 7 samples.

Results

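Cathepsins and legumain are the proteases that digest protein inside lysosomes and endosomes. This account covers 10 of their genes, Ctsa, Ctsb, Ctsc, Ctsd, Ctsh, Ctsk, Ctsl, Ctss, Ctsz and Lgmn, in macrophages sorted from mouse gliomas. They were taken from a named list by matching the gene identifiers of the count files to mouse symbols, and all 10 of 10 were found among 55385 listed genes. Messenger RNA was profiled in tumour-associated macrophages of C57BL/6 mice that carried intracranial tumours of the glioma line QPP7, grown from 100000 injected cells. In 3 libraries the injected cells bore a short hairpin RNA against Chi3l1 (shChi3l1), which encodes the secreted glycoprotein chitinase-3-like-1, and in 4 libraries a control hairpin (shSC). The hairpin was in the tumour cells, so the macrophages of both groups were of the host's own genotype, and the comparison asks how they differed with the tumour they came from. All tumours came from a single line. The age of the mice is not given in the sources used here, and no label states whether the libraries are from different mice, so p-values reflect the variation among these samples, some of which may be technical.

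Most of these enzymes are made as inactive precursors, carried to the endosome by the mannose 6-phosphate system, and activated there as acidity rises. They fall into classes by the residue that does the chemistry: most are cysteine proteases of the papain family, cathepsin D is an aspartic protease, cathepsin A is a serine carboxypeptidase, and legumain is a cysteine protease of a separate family that cuts after asparagine. Endopeptidases such as cathepsins S, L and K cut within a chain, while cathepsins Z, H and C trim its ends, and cathepsin B does both. In macrophages they degrade engulfed material, trim the invariant chain from class II molecules and cleave endosomal Toll-like receptors, and part of them is secreted into tumours, where cystatins hold them in check.

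The libraries held 19169129 to 36502664 assigned reads. All 9 macrophage markers looked for had reads, and their summed level was 24754 to 43524 CPM (reads scaled to library totals adjusted by the trimmed mean of M-values, TMM) in shChi3l1 and 18024 to 28852 in shSC. Each of these 9 was higher in shChi3l1, as were all 10 microglial markers (1296 to 4746 CPM against 1076 to 1798), and none passed the test. Of 8 markers of monocyte-derived cells 4 were higher and 4 lower, and none passed. They summed to 1075 to 3449 CPM in shChi3l1, highest in shChi3l1 1, and to 581 to 2231 in shSC. No marker of the other cell types looked for, which were B, T and NK, dendritic and endothelial cells, neutrophils, fibroblasts and tumour or glia, was at 0 in every library. Some were traces, such as Col1a1 at no more than 0.430 CPM. Dendritic cell markers summed to 603 to 948 CPM in shChi3l1 and to 247 to 1391 in shSC, highest in shSC 3. Of these 8 markers 4 were higher and 4 lower in shChi3l1. Tumour and glial markers summed to 251 CPM in shSC 4 and to 11.1 to 73.8 in the other libraries. Of the 9 that were tested, 1 was higher and 8 were lower in shChi3l1, and none passed. B cell markers summed to 285 CPM in shChi3l1 3 and to 17.3 to 176 in the others. All 6 that were tested were higher in shChi3l1, and none passed. Ribosomal protein genes took 6.59% of reads in shChi3l1 1 and 6.21% in shSC 1, and 2.14% to 4.84% in the other libraries. In RNA from pooled cells, fewer cells of a type and less RNA per cell cannot be told apart. The members' median log2 fold change between hairpins, 0.22 over all libraries, was 0.26 without shSC 4 and shChi3l1 3.

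The starts of 8 of the 10 genes have promoter sequence in RefSeq (GRCm38.p6), 250 bases before to 50 after each start. Windows were searched on both strands for the E-box CACGTG, which MiT/TFE factors such as Tfeb bind in lysosomal gene promoters, for its longer form TCACGTGA and the still longer CLEAR palindrome, which both contain it, and for GAGGAAGT, a form of the site of the myeloid factor PU.1. The E-box lay in the windows of 4 of 8 genes, Ctsa, Ctsd, Ctsl and Lgmn, against 8.09% of all 27025 genes with a window. The form TCACGTGA lay in 2 of 8, Ctsa and Ctsd, against 1.12% of all genes. The CLEAR palindrome lay in 0 of 8 and in 0.370% of all genes. GAGGAAGT was found in 2 of 8, Ctss and Ctsc, against 3.69%, both times as its reverse complement ACTTCCTC. These stretches are shown because they sort the genes by a property that no expression value entered. The match is in capitals, and each is read 5′ to 3′ on the gene's strand, with GRCm38 coordinates. A match describes letters only, and a gene without one lacks them in this window only.
Ctsd, chr7:142387889-142387956, minus strand: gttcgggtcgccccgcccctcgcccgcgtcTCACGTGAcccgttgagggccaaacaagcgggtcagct
Ctsa, chr2:164833730-164833792, plus strand: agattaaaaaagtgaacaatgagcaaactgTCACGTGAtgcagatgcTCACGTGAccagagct
Ctsl, chr13:64370737-64370770, minus strand: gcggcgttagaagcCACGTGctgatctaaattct
Lgmn, chr12:102439106-102439171, minus strand: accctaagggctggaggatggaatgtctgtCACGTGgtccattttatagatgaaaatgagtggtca
Ctss, chr3:95526744-95526799, plus strand: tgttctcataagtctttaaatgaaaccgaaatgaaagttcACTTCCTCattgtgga
Ctsc, chr7:88277904-88277971, plus strand: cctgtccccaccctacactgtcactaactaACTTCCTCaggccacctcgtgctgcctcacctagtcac

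In Ctsd the extended E-box sat at positions -99 to -92 from the RefSeq start, and a plain CACGTG lay at -245 to -240, outside the stretch shown. In Ctsa both copies flanked the second of its RefSeq starts, at -13 to -6 and at 5 to 12. In Ctsl the match was farther out, at -236 to -231, and in Lgmn at -49 to -44 of its second start. The ACTTCCTC of Ctss overlapped the start itself, at -2 to 6, and that of Ctsc lay at -151 to -144.

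Cathepsin S transcripts far outnumbered those of the other family members. Per transcript length, as TPM, which corrects CPM for length, Ctss stood at 18976 ± 4383 (SD, n = 7 libraries), rank 7 by mean TPM among all genes. Ctsz followed at 4961 ± 2175 (SD, n = 7), and Ctss exceeded it in 7 of 7 libraries, by a median ratio of 3.53. Ctsz was in turn above Ctsd in all 7. Ctsd, at 3061 ± 1824 TPM (SD, n = 7), and Ctsb, at 2896 ± 1129 (SD, n = 7), did not differ beyond their spread, Ctsd being the higher in 4 of 7 libraries. Likewise Ctsc, at 1554 ± 412 TPM (SD, n = 7), and Lgmn, at 1449.8 ± 447 (SD, n = 7), exchanged places, with Ctsc higher in 4 of 7. Ctsh had the narrowest spread for its level, 814 ± 107 TPM (SD, n = 7), and lay below Lgmn and above Ctsa (534 ± 268, SD, n = 7) in 6 of 7 libraries each. At the foot of the order were Ctsl at 112 ± 19.8 TPM (SD, n = 7) and Ctsk at 2.97 ± 2.35 (SD, n = 7), the osteoclast collagenase.

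The middle of this order depends on the gene length used. The deposited length counts every exon base of a gene, which for Ctsl is 6489 bases against 1971 in its principal transcript, for Ctsc 5808 against 2493 and for Ctsh 4499 against 1617. With principal transcript lengths, chosen as an alternative after the data had been seen, Ctsc stood at 2319.9 ± 597 TPM (SD, n = 7), between Ctsb at 2378 ± 944 and Ctsd at 2186 ± 1323. Ctsb exceeded it in 4 of 7 libraries, and it exceeded Ctsd in 4 of 7. Ctsh stood at 1453 ± 179, above Lgmn at 1179 ± 361 in 5 of 7, and Ctsl stood at 237 ± 44.1. Ctss, at 12239.9 ± 2967, and Ctsz, at 3198 ± 1430.4, remained the top of the order and Ctsk, at 1.89 ± 1.48, its foot. Other genes overlap 34.4% of the deposited exon bases of Ctsd, 26.8% of Ctsl, 17.4% of Ctsa, 12.8% of Ctsb and 0.694% of Ctsz. The part of these overlaps in the order was not tested.

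**Figure D1:**
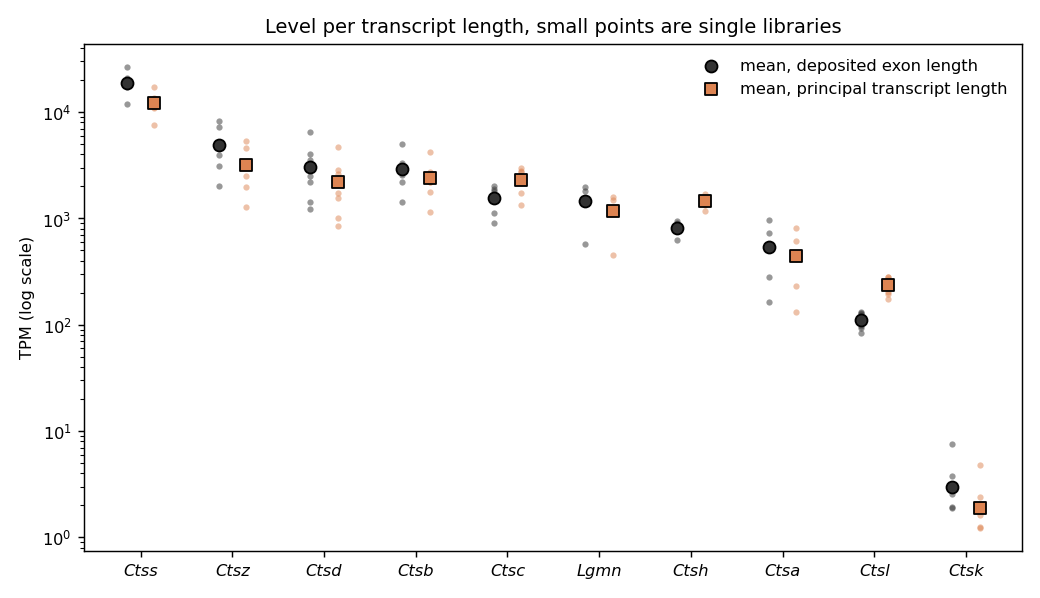
Level of each gene per transcript length (TPM, log axis), by the deposited exon length (grey circles) and the principal transcript length (orange squares). Small points are the 7 libraries and large symbols their means, and the shChi3l1 3 value of Ctsk, 0, cannot be drawn on a log axis. Ctss lies above all others by either length, and Ctsc, Ctsh and Ctsl sit higher with the shorter length.

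Together the 10 genes made up 2.52%, 5.20% and 3.51% of all transcripts, as summed TPM, in shChi3l1 1, 2 and 3. In shSC 1 to 4 they made up 2.85%, 4.01%, 3.30% and 2.67%. The groups overlapped, with the highest value in shChi3l1 2 and the lowest in shChi3l1 1. By principal transcript lengths these same libraries were at 3.84% and 1.82%, again the highest and the lowest.

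The 10 genes did not move as a block over the libraries. In shChi3l1 2 all 10 of 10 lay above their own mean log2 level, and 5 had their highest value there. In shChi3l1 1, of the same hairpin, 3 genes (Ctsh, Ctsl and Ctss) had their highest value and 4 (Ctsa, Ctsb, Ctsz and Lgmn) their lowest. The other libraries had 3 to 7 genes above the mean. Ctsk counted as above its mean in every library but shChi3l1 3, where its 0 reads (-5.85 from the mean on the log2 scale) lowered that mean. Relative to the gene's mean, Ctsd was at 1.23 on the log2 scale in shChi3l1 2 and at -0.88 in shSC 1, and Ctsa at 0.99 in shChi3l1 2 and -0.97 in shChi3l1 1. The range over libraries was widest for these same genes, the aspartic and the serine protease: the highest library exceeded the lowest 4.32-fold for Ctsd and 3.89-fold for Ctsa. It was 1.69-fold for Ctsl, 1.91-fold for Ctsh and 2.71-fold for Ctss. Ctsk, with few reads, was left out of this range. shChi3l1 2 also had the lowest ribosomal protein share, 2.14% of reads, and the highest share in genes over 5000 bases, 20.7%, against 12.6% in shChi3l1 1, and the part of these shares in the pattern was not tested.

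The members most alike over the 7 libraries were Ctsb with Ctsz and Ctsa with Ctsz, whose centred log2 levels lay at root mean square distances of 0.225 and 0.247. Ctsc with Lgmn, at 0.306, and Ctsc with Ctsh, at 0.322, came next. These distances are descriptions over 7 libraries that share depth, scaling and library makeup for all genes. Among all other tested genes whose mean was 5 or more in log2 CPM, the nearest to Ctsb were Lipa (0.106), Alas1 (0.127) and Rmdn3 (0.131). Nearest to Ctss were Fam49b (0.099), Npc2 (0.130) and P2rx4 (0.149), and to Ctsz Pea15a (0.068), Lgals9 (0.117) and Nek6 (0.133). Ctsh lay nearest to Ccndbp1 (0.057), Stx7 (0.073) and Sdcbp (0.084), and Ctsc to Idh2 (0.068), Snx8 (0.097) and Sharpin (0.110). Neighbours of Ctsd were farther, Mgat4a at 0.170, Lhfpl2 at 0.180 and Ifit2 at 0.184. Those of Ctsl lay at like distances, Rnf13 at 0.169, Rilpl2 at 0.171 and Cfp at 0.189, but Ctsl itself varied less. The root mean square distance from the gene's own mean was 0.231 for Ctsl and 0.643 for Ctsd, so the Ctsl neighbours matched it less closely for its variation. For Ctsa they were Hcls1, Ifi204 and Lrp10, from 0.131 to 0.153, and for Lgmn Cndp2, Kcnn4 and C3ar1, from 0.148 to 0.171. Ctsk had no near neighbour: Mmp12, Chil3 and Mmp13 were closest, at 1.56 and more.

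**Figure D2:**
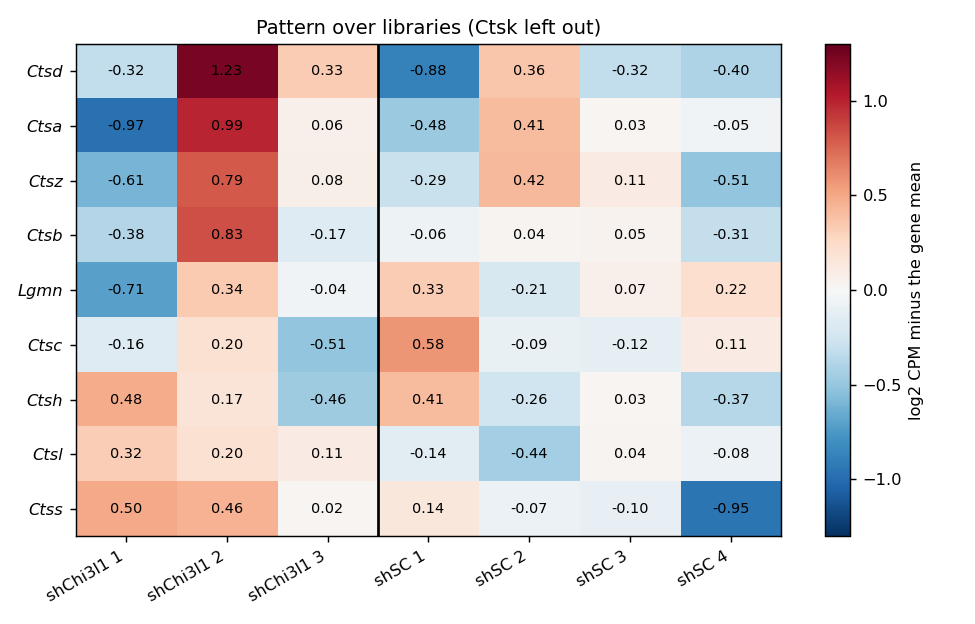
Log2 CPM of each gene minus its mean over the 7 libraries, as colour and number, with shChi3l1 libraries left of the line and shSC libraries right of it. Ctsd, Ctsa, Ctsz and Ctsb are highest in shChi3l1 2, while Ctss, Ctsl and Ctsh are highest in shChi3l1 1.

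Between hairpins, none of the 10 genes passed the test, and 7 of 10 had a positive log2 fold change (higher in shChi3l1), against 57.6% of all tested genes. Their median log2 fold change was 0.22, beside 0.07 over all 15448 genes. With the replicate number as a block, over the 6 paired libraries, both medians were 0.02 and 7 of 10 members were again higher. edgeR's quasi-likelihood test, adjusted over all genes by the Benjamini-Hochberg method, called 0 genes at 0.05 (0%), and every member had an adjusted p of 0.9998. Without adjustment 229 genes (1.48%) had p under 0.05, and 0 of 10 members did. DESeq2's Wald test called 1 gene, which was no member, with 350 at that unadjusted level, and voom with sample quality weights called 0, with 701, among them the member Ctsk (unadjusted p 0.0476, adjusted 0.942). Without shChi3l1 2 the members' median was -0.21 and 4 of 10 were higher. Values below are TMM-scaled CPM, in the order of the replicates, and fold changes are of shChi3l1 against shSC.

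Of the endopeptidases, Ctss and Ctsl were higher in shChi3l1 in each of the 3 same-numbered pairs, Ctsb in 1 of 3. Ctss (ENSMUSG00000038642.10, mm10 chr3:95526786-95556403, plus strand) encodes the enzyme that cuts the invariant chain in antigen-presenting cells and works at neutral pH. It had 17316, 16858 and 12497 CPM in shChi3l1 and 13581, 11679.7, 11437 and 6380.4 in shSC. The group means were 15557 ± 2660.3 (SD, n = 3) and 10769 ± 3079 (SD, n = 4), and the ranges overlapped because shSC 1 exceeded shChi3l1 3. Scaled by total reads alone, they did not overlap. The log2 fold change was 0.53 (SE 0.38), and 0.35 to 0.66 when any library was left out. The lowest value was in shSC 4, the library with the most tumour and glial marker reads, whose part in this was not tested. With shSC 4 out the log2 fold change was 0.35, and with shChi3l1 3 out as well it was 0.48.

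Ctsl (ENSMUSG00000021477.9, mm10 chr13:64359337-64370890, minus strand), a related endopeptidase, was the only member whose groups did not overlap by TMM scaling, 1 of 10, where 1.24% of all genes did not overlap with shChi3l1 higher, 1.25% with it lower and 2.49% in either direction. It stood at 436, 400.4 and 378 CPM in shChi3l1, against 316, 258, 359.6 and 331 in shSC. Means were 405 ± 29.4 (SD, n = 3) and 316 ± 42.8 (SD, n = 4), with 0.36 (SE 0.31) as the log2 fold change. By DESeq2 size factors the groups also stayed apart, and by upper quartile factors, total reads or TPM they overlapped. Other genes overlap 26.8% of its deposited exon bases, though none of its principal transcript.

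Ctsb (ENSMUSG00000021939.8, mm10 chr14:63122462-63145923, plus strand), which can act both within a chain and at its end, had 6163, 14314 and 7159.9 CPM in shChi3l1 and 7682, 8239, 8315 and 6469 in shSC. A single library, shChi3l1 2, stood above all others, and the remaining shChi3l1 values lay within or below the control range. The log2 fold change of 0.26 (SE 0.40) was -0.21 without that library. Another gene, Fdft1, overlaps 12.8% of the exon bases of Ctsb, and 16.3% of its principal transcript is overlapped. Ctsk (ENSMUSG00000028111.4, mm10 chr3:95499256-95509362, plus strand), which precedes Ctss on the same strand, was scarce, with 65, 46 and 0 reads in shChi3l1 and 187, 42, 62 and 52 in shSC. That is 2.77, 1.37 and 0 CPM against 6.63, 1.19, 2.12 and 2.24. A count of 0 in shChi3l1 3 allows up to 0.122 CPM, by counting error alone. The log2 fold change of -1.14 (SE 1.14) was -0.57 without shChi3l1 3, -0.46 without shSC 1, -2.20 without shChi3l1 1 and -3.27 with voom, so its size depended on the libraries and the method used.

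Among the enzymes that trim chain ends no direction was shared. Ctsz (ENSMUSG00000016256.10, mm10 chr2:174427493-174439039, minus strand), a carboxypeptidase, had 2086, 5518 and 3354 CPM in shChi3l1 and 2607, 4266, 3434 and 2236 in shSC. Its highest and lowest values both belonged to shChi3l1. On the log2 scale the difference was 0.22 (SE 0.43), and -0.21 without shChi3l1 2. Ctsh (ENSMUSG00000032359.14, mm10 chr9:90054152-90076089, plus strand), an aminopeptidase, had 2473, 1992 and 1292 CPM against 2355, 1484, 1811 and 1374. Here too shChi3l1 held both extremes, and the log2 fold change was 0.13 (SE 0.38), turning to -0.14 without shChi3l1 1. Ctsc (ENSMUSG00000030560.17, mm10 chr7:88278085-88310888, plus strand) removes dipeptides and activates granule serine proteases of lymphocytes and myeloid cells. It had 3799.7, 4892 and 2978 CPM in shChi3l1 and 6348, 3992, 3923 and 4591 in shSC, with the highest value in shSC 1 and the lowest in shChi3l1 3. Its fitted log2 fold change was -0.28 (SE 0.37), and -0.48 to -0.12 with any library left out.

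Ctsd (ENSMUSG00000007891.16, mm10 chr7:142375911-142388038, minus strand), the aspartic endopeptidase, had the largest positive estimate of the 10. It had 2423, 7137 and 3817 CPM in shChi3l1, and 1653, 3884, 2422 and 2300.0 in shSC. Means were 4459 ± 2421 (SD, n = 3) and 2565 ± 942 (SD, n = 4), and the groups overlapped: shChi3l1 1 lay at the level of shSC 3. Within the same-numbered pairs shChi3l1 was higher 3 of 3 times, by 0.55, 0.88 and 0.66 on the log2 scale, and this held on all 5 scalings tried. Ctsd, Ctss and Ctsl were the 3 of 10 members higher in every pair, a pattern that 12.5% of all genes showed. By upper quartile factors only Ctsd was, since Ctss and Ctsl were then higher in 2 of 3 pairs. None of the 10 was lower in every pair, against 10.7% of all genes, although by total reads Ctsk was. The log2 fold change was 0.80 (SE 0.47) over all libraries and 0.69 (SE 0.22) with the replicate number as a block, where the edgeR adjusted p was 1 and the unadjusted p was 0.0210. Without shChi3l1 2 it was 0.28, and without shChi3l1 1 it was 1.07 (edgeR unadjusted p 0.0382, adjusted 0.7496). An edgeR unadjusted p under 0.05 was reached by 435 of 14950 genes with the block, and by 908 of 16174 without shChi3l1 1. Another gene, Gm49369, overlaps 34.4% of the exon bases of Ctsd, and 38.0% of its principal transcript is overlapped. The unstranded reads cannot be told apart there.

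**Figure D3:**
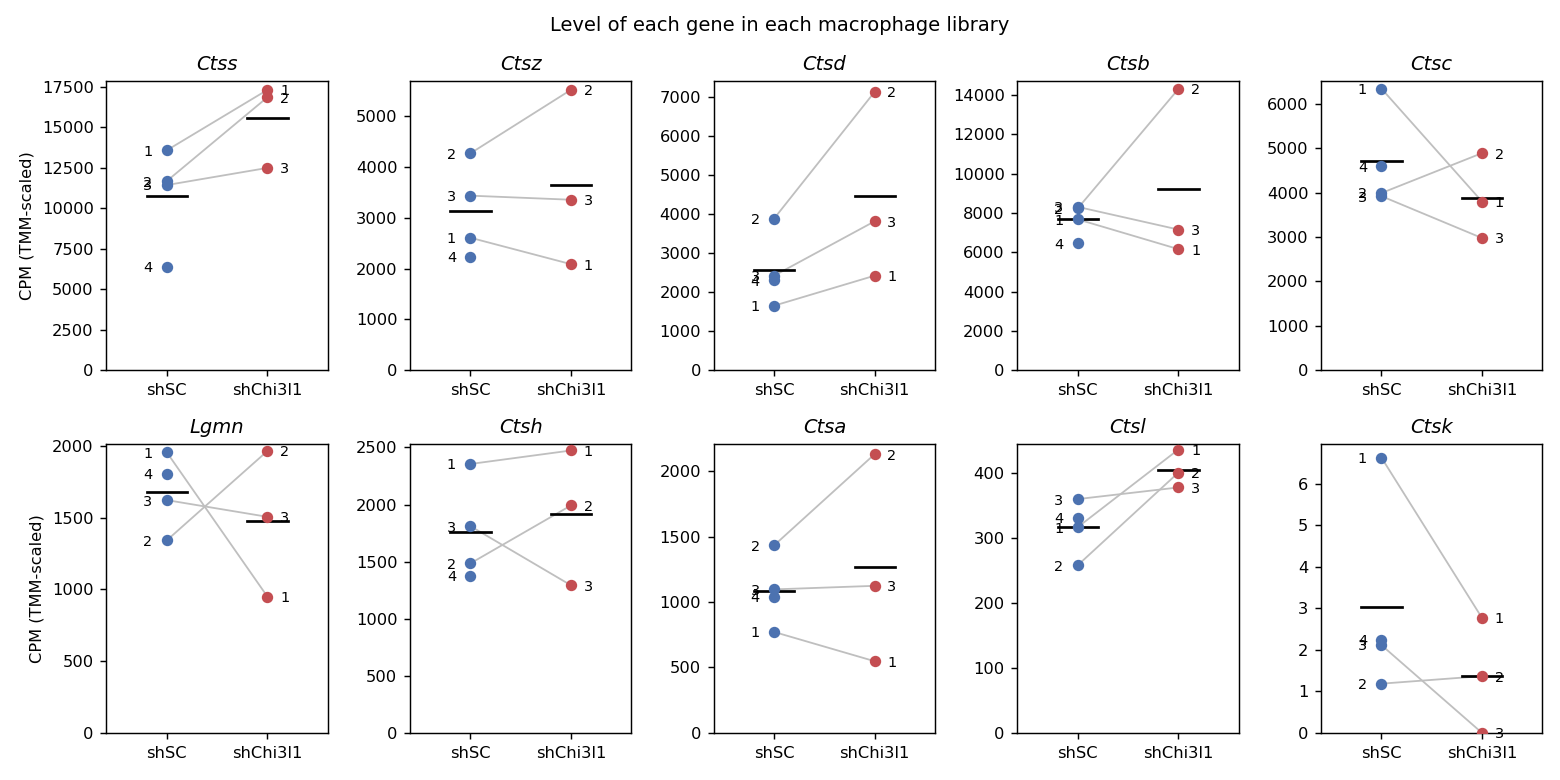
TMM-scaled CPM of each gene (linear axes from 0) in the 4 shSC (blue) and 3 shChi3l1 (red) libraries, numbered by replicate. Bars are group means and grey lines join same-numbered libraries. The lines slope up in all 3 pairs for Ctss, Ctsd and Ctsl, and the groups of Ctsl are apart.

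Ctsa (ENSMUSG00000017760.16, mm10 chr2:164832873-164841032, plus strand), a serine carboxypeptidase that also protects lysosomal neuraminidase and beta-galactosidase, had 548, 2131 and 1124 CPM in shChi3l1. In shSC it had 772, 1433, 1097 and 1041, inside the range of the other group. Its log2 fold change was 0.22 (SE 0.48) and -0.38 without shChi3l1 2. Other genes, Neurl2 and Pltp, overlap 17.4% of the exon bases of Ctsa, and 21.7% of its principal transcript is overlapped. The usual partners of cathepsin A, Neu1 and Glb1, were both higher, and neither passed. Neu1, the neuraminidase, had 167, 167 and 132 CPM against 178, 105, 121 and 98.9, a log2 fold change of 0.30 (SE 0.33).

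Lgmn (ENSMUSG00000021190.14, mm10 chr12:102394084-102439813, minus strand), which also processes several cathepsins into their mature chains, had 949.9, 1964 and 1506 CPM in shChi3l1 and 1956, 1341, 1622 and 1804 in shSC. The lowest value was in shChi3l1 1, well under the others, and the highest in shChi3l1 2 and shSC 1. The pairs disagreed, at -1.04, 0.55 and -0.11 on the log2 scale. The overall log2 fold change was -0.19 (SE 0.37), and 0.00 without shChi3l1 1.

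**Figure D4:**
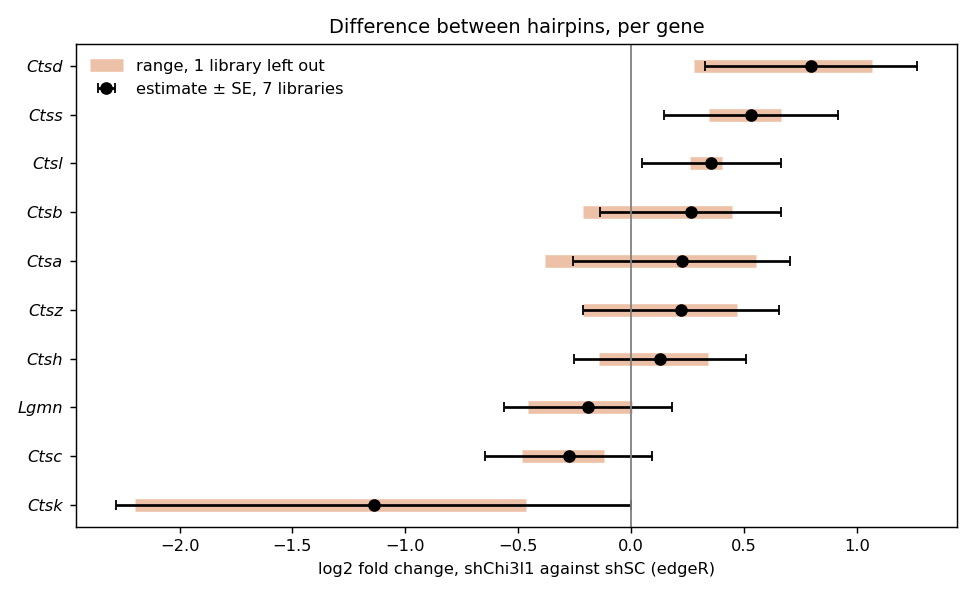
Log2 fold change of each gene, shChi3l1 against shSC, from edgeR (black points, bars are 1 SE), with the range when any 1 of the 7 libraries is left out (orange). The range stays above 0 for Ctsd, Ctss and Ctsl, below 0 for Ctsc and Ctsk, and crosses or reaches 0 for the other 5.

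A share of the family's own transcripts does not depend on scaling between libraries, but it does depend on the gene length used. By principal transcript lengths Ctss took 36.7% to 62.0% over the libraries. The Ctsc means were then 7.02% in shChi3l1 and 11.2% in shSC. The shares that follow use the deposited length. Ctss made up 70.7%, 51.1% and 57.2% of the summed TPM of the 10 genes in shChi3l1, and 60.8%, 52.1%, 55.1% and 45.0% in shSC. The means were 59.7% ± 10.0 (SD, n = 3) and 53.2% ± 6.57 (SD, n = 4), and the difference of 6.42 percentage points had an exact two-sided permutation p of 0.371 (0.557 adjusted over the 3 shares tested). Lgmn made up 2.27%, 3.48% and 4.03% in shChi3l1 against 5.12%, 3.50%, 4.57% and 7.44% in shSC. In each of the 3 pairs the Ctsd share was higher in shChi3l1, and those of Ctsc, Ctsh, Ctsk, Ctsz and Lgmn were lower. Shares of a common sum are tied to each other, and being lower in every pair was not particular to Lgmn. Its means were 3.26% ± 0.903 (SD, n = 3) and 5.16% ± 1.66 (SD, n = 4), and the exact two-sided permutation p was 0.114 (0.343 adjusted). Over the 35 splits of 7 libraries into 3 and 4 the smallest p possible is 0.0571. Ctsl, the third share tested, was 0.254% to 0.372% in shChi3l1 and 0.241% to 0.488% in shSC (exact permutation p 0.83, also 0.83 adjusted). Without a test, as it was picked after the values were seen, Ctsc took 3.63%, 3.47% and 3.19% in shChi3l1 and 6.64%, 4.16%, 4.42% and 7.57% in shSC. These groups did not overlap, and those of the other 9 shares did.

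**Figure D5:**
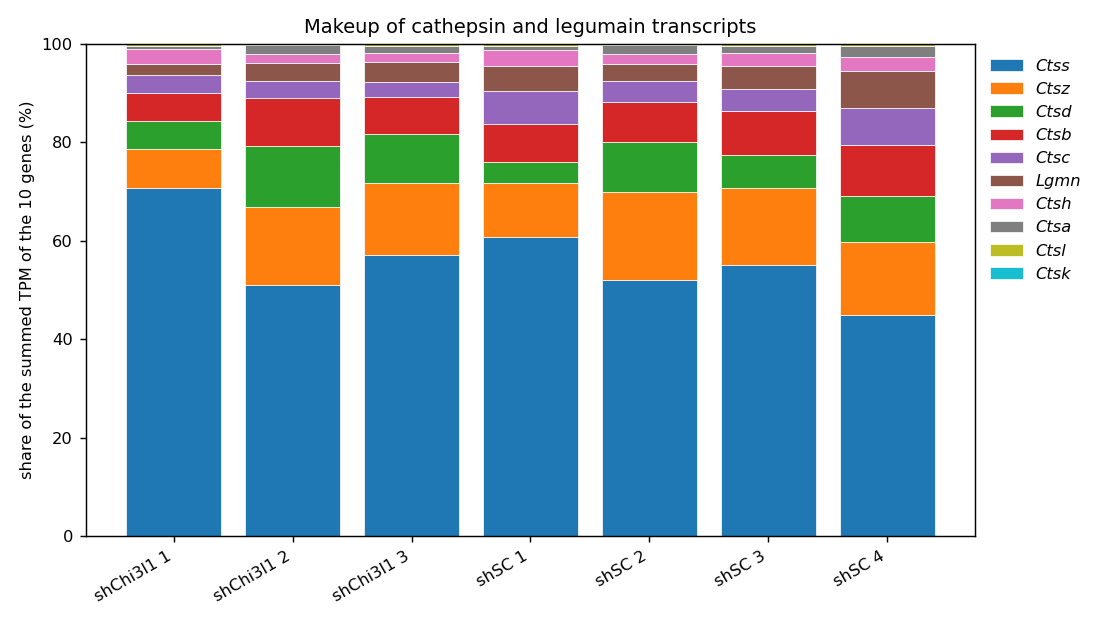
Share of each gene in the summed TPM of the 10 genes (%), as stacked bars that add to 100, for each library. Ctss takes the largest share in all 7 libraries, from 45.0% in shSC 4 to 70.7% in shChi3l1 1, and Lgmn and Ctsc are widest in shSC 4.

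Of the 14 other cathepsin genes, 5 had enough reads to test, 4 higher and 1 lower in shChi3l1, and none passed. Their median log2 fold change was 0.98, with 1 of the 5 at an unadjusted p under 0.05. Ctso, a widely expressed cysteine protease, had 109, 105 and 95.7 CPM in shChi3l1 and 84.1, 65.5, 64.4 and 45.3 in shSC. The groups did not overlap (0.67 log2, SE 0.31) by any read-based scaling, and overlapped as TPM. Ctsf, which also cuts the invariant chain, had 8.55, 23.6 and 56.1 CPM against 9.40, 12.5, 9.93 and 5.72. Its log2 fold change of 1.65 (SE 0.58) was the one at an unadjusted p under 0.05, and its highest value was in shChi3l1 3. Without that library it was 0.78. Microglial markers were also highest there, at 4746 CPM, and their part was not tested. Ctse, an aspartic protease, was low, at 1.15, 7.58 and 8.33 CPM against 1.13, 5.48, 1.43 and 3.44 (0.98, SE 0.76). Ctsw, made by cytotoxic lymphocytes, was at 21.7, 6.89 and 20.1 against 21.3, 32.6, 41.9 and 4.47 (-0.63, SE 0.69). The neutrophil enzyme Ctsg did not exceed 0.426 CPM in any library.

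Cystatins inhibit papain-like cathepsins, and all 3 of the 8 listed inhibitors that could be tested were higher in shChi3l1, none past the threshold, with a median log2 fold change of 0.87. Cst3, the secreted cystatin C, had 4903, 4061 and 10275 CPM in shChi3l1 against 3628, 4009.8, 3859 and 2425 in shSC. The groups did not overlap by TMM, and they overlapped by the other 4 scalings. The highest value was again in shChi3l1 3, the library with the most microglial marker reads, whose part was not tested. The log2 fold change was 0.88 (SE 0.43), with an edgeR unadjusted p of 0.068, and 0.36 without shChi3l1 3. Cst7, cystatin F, an inhibitor of cathepsins C and L inside endosomes, had 224, 164 and 143 CPM against 82.6, 162, 109.9 and 32.3 (0.87, SE 0.50). Cstb, the cytosolic stefin B, had 1844, 594 and 399.5 against 1289, 502, 544 and 772 (0.28, SE 0.58), highest in replicate 1 of each hairpin, and its log2 fold change was -0.70 without shChi3l1 1.

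Genes that deliver, activate or use the cathepsins gave no call either. All 9 genes of sorting to the lysosome were tested, and 8 were higher and 1 lower. Their median was 0.23, M6pr, a mannose 6-phosphate receptor, at 0.13 (SE 0.33) and its adaptor Gga2 at 0.45 (SE 0.32). The 4 MiT/TFE factors, which drive lysosomal genes, had 3 higher and 1 lower, with a median of 0.38. Tfe3 among them had 20.05, 80.9 and 74.2 CPM in shChi3l1 and 20.9, 62.5, 35.8 and 44.8 in shSC, lowest in replicate 1 of both hairpins, and a log2 fold change of 0.51 (SE 0.53). Tfeb was lowest in shSC 4 at 14.4 CPM and highest in shChi3l1 3 at 54.4 (0.49, SE 0.48). The 13 subunits of the proton pump that acidifies lysosomes, 10 higher and 3 lower, had a median of 0.08, with Atp6v0c at 0.11 (SE 0.33) and Atp6ap1 at 0.37 (SE 0.35).

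Of the granule proteases that cathepsin C activates, 5 of 6 were tested, 1 higher (Ctsg, at few reads) and 4 lower, with a median of -0.41. Gzma and Gzmb, granzymes of cytotoxic lymphocytes, were at -0.07 (SE 0.98) and -0.74 (SE 0.71), and Gzma ranged from 43.4 to 943 CPM over the libraries. Markers of T and NK cells summed to 72.8 to 654 CPM, with 3 higher and 5 lower in shChi3l1, and their part in these values and in those of Ctsw was not tested. Of 8 genes of class II processing, the step that cathepsin S serves, 6 were higher and 2 lower, with a median of 0.31 and H2-Ab1, a class II chain, at 0.44 (SE 0.43). The 3 endosomal Toll-like receptors listed, Tlr3, Tlr7 and Tlr9, and their escort Unc93b1 were all higher, with a median of 0.75. Tlr9, which cathepsins cleave, was at 0.83 (SE 0.47), at no more than 4.27 CPM. Unc93b1 had 694, 1947 and 1590.3 CPM in shChi3l1 and 1063, 1088, 928 and 919.8 in shSC (0.50, SE 0.40), with shChi3l1 1 below every control library.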

How the data were processed

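Macrophage RNA (10 ng) was turned into cDNA with a low-input SMART-Seq kit and into libraries with Nextera XT, per the labels' protocols. This chemistry does not mark strand. The deposited files hold whole-number counts per gene made by the authors. The submitters' processing notes name mm10, Trim Galore, HISAT2 and featureCounts. No version or setting is given in the sources used here. The extract protocol names no antibodies of the gate. Of 55385 gene IDs, 54487 matched GENCODE mouse release 21 with version and 55144 without.

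The test was the quasi-likelihood F test of edgeR 4.0.16 (R 4.3.3, robust) on TMM-scaled counts, after filterByExpr at a minimum count of 10, with a single term for hairpin. Benjamini-Hochberg adjustment ran over 15448 genes, at a threshold of 0.05. Standard errors came from the F statistic. The biological coefficient of variation was 58.35%. The test was checked on simulated data. TPM used the deposited gene lengths. Before logarithms 0.5 was added to counts. Shares were compared by exact permutation. DESeq2 1.42.0 and limma 3.58.1 gave alternatives. Intervals and floors cover counting error only, and PCR copies are not independent molecules.

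The members and lists were chosen with earlier results of these data known. Named are all members, every tested gene of the other cathepsins and inhibitors, of each other list the most abundant tested gene and that of smallest unadjusted p, and the 3 nearest genes of each member. The labels call replicates 1 to 3 pairs in a figure, and name no day, litter or animal that a pair shares. Deviations from group means correlated at 0.306, 0.260 and 0.188 within these pairs, all above the limit of 0.1, though shChi3l1 3 with shSC 2 reached 0.322. The replicate block was an alternative and left out shSC 4.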

Additional observations from a re-analysis of the deposited data

Results flagged for a closer look

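Of 33 group values examined for a sample far from the others, 1 stood out, and chance alone marks about 1 in 20. The neutrophil protease gene Ctsg was at 0.344 CPM in shSC 4, where the other 3 control libraries lay between 0 and 0.0565 CPM. These levels rest on at most a few reads.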

How the results depend on the processing

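The log2 fold changes of the 10 genes were recomputed under 15 other settings of scaling, filter, test, block and libraries, and 7 of 150 values changed sign. Without shChi3l1 1, Ctsh was at -0.14 (from -0.14 to 0.34 over the libraries left out) and Lgmn at 0.0024 (-0.46 to 0.0024). Without shChi3l1 2, Ctsa was at -0.38 (-0.38 to 0.55), Ctsb at -0.21 (-0.21 to 0.45) and Ctsz at -0.21 (-0.21 to 0.47), the members' median at -0.21 (from -0.21 to 0.33 over the libraries left out) and 4 of 10 genes were higher (4 to 7). With voom, Ctsh was at -0.0092 and Lgmn at 0.03. Ctsc, Ctsd, Ctsk, Ctsl and Ctss kept their sign under all 15. No member passed under any, and DESeq2's Wald test called 1 gene of all tested, where the other 14 called 0. With the replicate block, which pairs the libraries, no call changed, and the members' median was 0.02, as it was over all genes. The number of members without overlap was 0 by upper quartile factors and 0 by TPM, and that of members higher in every pair was 1 by upper quartile factors. These scalings were chosen after the data had been seen. The difference in the Ctsl share, shChi3l1 minus shSC, was -0.018 percentage points. It was 0.051 as a share of reads, 0.013 without shSC 4 and shChi3l1 3 together, and 0.029 with the replicate block. With any library left out it ran from -0.053 to 0.029. The same difference, with any library left out, ran from 0.923 to 10.7 for the Ctss share and from -2.45 to -1.14 for Lgmn. With principal transcript lengths Ctsc, Ctsh, Ctsl and Ctss moved beyond their spread, the values standing with the levels. Without a low-count filter the median of all genes was -0.09, against 0.07, so fold changes there are relative to that. The cause of these shifts was not tested. Ctsk, with few reads, ranged from -2.20 to -0.46 over the libraries left out.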
